A study of Mus musculus with 8 samples.

Results

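The 9 genes described here encode the auxiliary subunits of voltage-gated calcium channels and a protein that binds them: the alpha2delta genes Cacna2d1, Cacna2d2, Cacna2d3 and Cacna2d4, the beta genes Cacnb1, Cacnb2, Cacnb3 and Cacnb4, and Cbarp. They were chosen by gene name as members of these families, not by their values, though earlier results of these data were known. All 9 had a row among the 14353 genes of the table, and all 9 were among the 14249 genes tested. A gene was tested where it lay over 1 CPM (counts relative to the size of the library, with sizes scaled by TMM) in at least 3 libraries.

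Ventral pallidum (VP) tissue came from untreated mice that were homozygous for VGluT2-Cre and heterozygous for the RiboTag allele of Rpl22. Cells that express Cre in these mice add an HA tag to their ribosomes. TRAP libraries hold the mRNA pulled down with those ribosomes and are labelled as glutamatergic neurons, and INPUT libraries are labelled as all neurons and glia. There were 4 pools (VP1.6, VP2.2, VP2.6, VP2.11) with 1 library per fraction, so n = 4 per fraction and 8 libraries in all. The labels count 38 mice, 15 male and 23 female, with 7 to 11 animals of both sexes per pool, aged 9 to 12 weeks in VP1.6 and 10 to 16 weeks in the other pools. Recombination by Cre is permanent, so a cell that expressed vGluT2 only earlier in life would carry the tag too. The tissue punches may have taken in neighbouring striatum. The study states that such areas lack vGluT2 and would not contaminate the pulldown. The study describes INPUT as RNA of the whole tissue, but its methods also name an unbound fraction at the sequencing step.

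High-voltage-activated calcium channels are built around a large pore subunit (the Cav1 and Cav2 proteins, encoded by Cacna1 genes) that opens when the membrane depolarizes. A beta subunit binds the pore protein from the cytoplasm, helps bring it to the cell surface and shapes its gating, whereas an alpha2delta subunit sits outside the cell, anchored to the membrane, and raises the number of channels at the surface and at presynaptic terminals. Low-voltage-activated (Cav3) channels can work without either. In neurons these channels couple action potentials to transmitter release and to calcium-dependent conductances that set firing.

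The target gene Slc17a6, which encodes vGluT2, was higher in TRAP, as the labels have it, at 143 ± 13.6 CPM in TRAP and 25.9 ± 10.3 CPM in INPUT (SD, n = 4), and Rpl22, whose allele carries the tag, was 56.3 ± 3.51 CPM in TRAP and 149.8 ± 42.8 in INPUT. All 5 glutamatergic markers rose (limma adjusted p under 0.05 with and without the pool as a block). Of 7 GABAergic and striatal markers, 5 were lower in TRAP, while Gad1 and Gad2 did not pass. Gad1 was at 514 to 828 CPM in TRAP against 263 to 630 in INPUT, and Gad2 at 397 to 730 against 298 to 729. The sum of the 7 spanned 1108 to 1812 CPM in TRAP and 1236 to 1943 in INPUT, so these ranges overlapped. Glial markers were not at 0 in TRAP. Summed over 5 markers each, astrocyte markers spanned 149.7 to 253 CPM in TRAP against 343 to 502 in INPUT, with 4 lower, oligodendrocyte markers 900.1 to 1631 against 3506 to 3807, with 4 lower and Mag higher without the block, and microglial markers 22.7 to 31.5 against 79.8 to 126, with 5 lower, or 4 with the block. The lowest was Tmem119, at 0.0281 CPM in 1 TRAP library. Of 3 endothelial and mural markers with a row, Flt1 was higher in TRAP, and of 2 cholinergic markers Chat was higher without the block only. The part of other cells in the differences below was not tested.

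Both libraries of a pool came from 1 homogenate, yet across genes they deviated from their fraction means in opposite directions (Pearson r of −0.745 to −0.495 in the 4 pools, against 0.0457 to 0.441 between pools). Opposed deviations make the spread within fractions smaller than the spread of the pool differences, so a fit with the fraction alone sees less error for most genes than a fit that also has the pool as a block. Both are given where they differ in their call. In all, 6830 genes (47.9%) passed an adjusted p of 0.05 with the fraction alone, 23.2% higher and 24.8% lower in TRAP. The block left 15.4% on the higher side and 16.8% on the lower.

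Against this background, 3 of the 9 genes passed as higher in TRAP with the fraction alone, namely Cacna2d1, Cacna2d2 and Cacnb1, and 0 as lower. With the block, Cacna2d1 and Cacnb1 remained. The median log2 fold change was 0.19 over the 9 genes and −0.05 over all genes tested. Every TRAP library lay above every INPUT library for 3 of the 9 genes (Cacna2d1, Cacnb1 and Cacnb3), as it did for 23.3% of genes tested, and the reverse held for 0 of the 9 against 24.4% of genes. On the higher side these counts are near the background shares, and 9 genes are too few to read the absence of calls on the lower side. In pooled tissue, fewer cells of a type and less RNA per cell cannot be told apart, and this holds for every difference between the fractions given here.

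**Figure D1:**
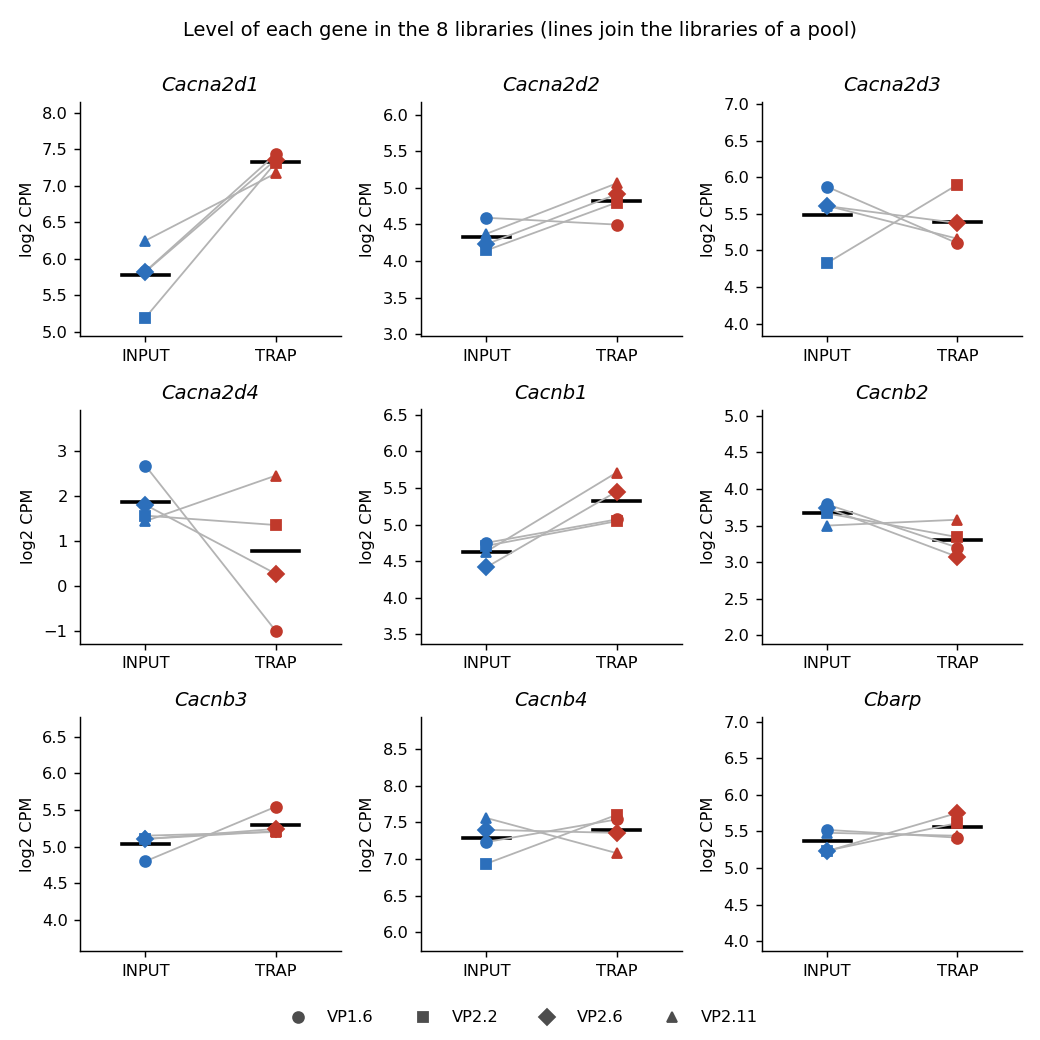
Log2 CPM of each of the 9 genes in the 4 INPUT (blue) and 4 TRAP (red) libraries, with grey lines joining the libraries of a pool and black bars for the mean. Each panel has its own range of log2 CPM. The 4 lines of Cacna2d1 all climb, from 36.7 to 76.1 CPM in INPUT to 144 to 172 CPM in TRAP, while those of Cacna2d3 and Cacnb4 cross.

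Cacna2d1 encodes the alpha2delta protein best known as the binding site of gabapentin and pregabalin. The gene (ENSMUSG00000040118) lies on the plus strand at chr5:15934691-16374511 (GRCm38). Its level in TRAP was 172 CPM in VP1.6, 159 in VP2.2, 164 in VP2.6 and 144 in VP2.11. In INPUT it was 56.9, 36.7, 56.7 and 76.1 CPM in the same order. The fractions did not overlap, and TRAP was the more even of the pair, with a spread over pools of 11.8 CPM (SD) against 16.1. This was a log2 fold change of 1.54 ± 0.197 (SE), or 2.91-fold (95% interval 2.15 to 3.94, or 2.07 to 4.11 with the block), with an adjusted p of 2.6e-04 in limma and of 2.9e-04 with the block. The pool differences ran from 0.92 in VP2.11 to 2.12 in VP2.2 on the log2 scale. Cacna2d1 passed under every alternative run, down to a log2 fold change of 1.08 when the trend of fold change on exon length was taken out.

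Cacna2d2, whose protein also binds gabapentin and whose loss causes ataxia in ducky mice, had a smaller difference that passed with the fraction alone only. The gene (ENSMUSG00000010066) lies at chr9:107399612-107529343. It was at 22.6, 27.8, 30.1 and 33.4 CPM in TRAP and at 24.1, 17.7, 18.7 and 20.7 CPM in INPUT (pools in the same order). TRAP was the higher fraction in VP2.2, VP2.6 and VP2.11 by a near-equal 0.65 to 0.69 on the log2 scale, and the lower by −0.09 in VP1.6. Its log2 fold change of 0.48 ± 0.166 (95% interval of the fold 1.08 to 1.80) had an adjusted p of 0.0337 in limma, which was lost with the block (interval 0.969 to 2.02, adjusted p 0.148). It was lost with the fraction alone without VP2.2 (log2 fold change 0.43, limma adjusted p 0.0955), without VP2.6 (0.42, 0.17) or without VP2.11 (0.41, 0.0913). With the exon length trend taken out it was 0.21 (limma adjusted p 0.328, or 0.565 with the block).

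Cacna2d3, a paralogue that does not bind gabapentin and is studied for its part in pain processing, did not pass. The gene (ENSMUSG00000021991) lies on the minus strand at chr14:28904943-29721864. It was at 34.2, 59.6, 41.5 and 35.8 CPM in TRAP and at 58.5, 28.4, 48.7 and 48.8 CPM in INPUT, in the same order of pools. Pool VP2.2 stood opposite to the rest, with TRAP higher by 1.07 on the log2 scale where the other pools had TRAP lower by between −0.77 and −0.23. The mean log2 fold change was −0.10 ± 0.244, a fold of 0.936 (95% interval 0.644 to 1.36, limma adjusted p 0.765). Without VP2.2 it was −0.48 with a limma adjusted p of 0.0204, or 0.0971 with the block, and without VP1.6 it was 0.13.

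Cacna2d4, known for its role at photoreceptor terminals, was the scarcest and the most variable of the 9. The gene (ENSMUSG00000041460) lies at chr6:119236526-119352407. It was at 0.501, 2.55, 1.21 and 5.46 CPM in TRAP and at 6.36, 2.95, 3.48 and 2.71 CPM in INPUT, and the fractions overlapped. It was the only member under 1 CPM in any library. Its log2 fold change of −1.10 ± 0.637 did not pass (fold 0.467, 95% interval 0.176 to 1.24, limma adjusted p 0.177), and it rested on VP1.6, without which it was −0.24. Without VP2.11 it was −1.80 with a limma adjusted p of 0.0418 (0.0512 with the block).

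**Figure D2:**
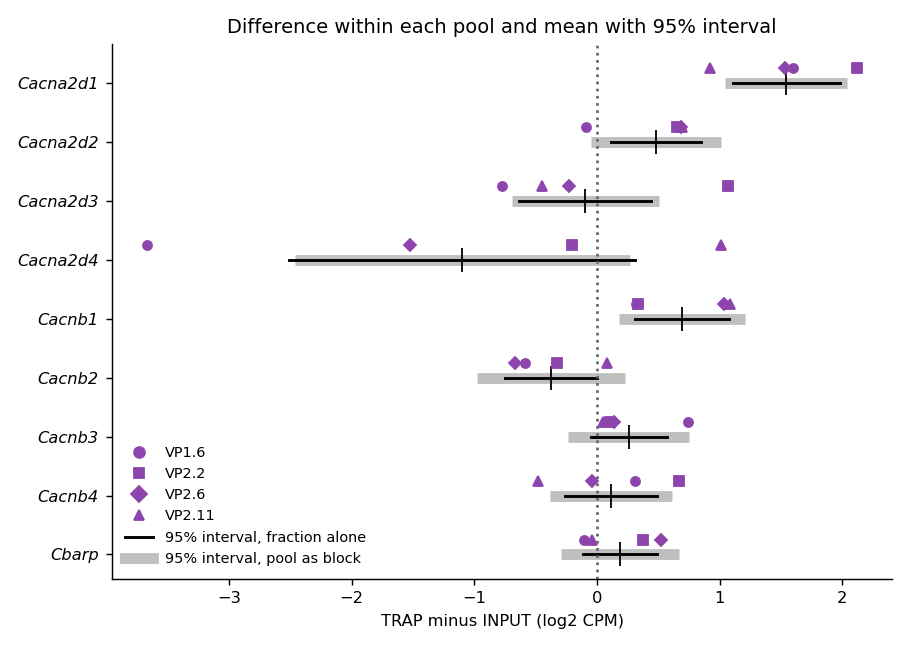
TRAP minus INPUT difference in log2 CPM for each gene, as symbols for the 4 pools, a tick for the mean, a black line for its 95% interval with the fraction alone and a grey bar for the interval with the pool as a block. Both intervals of Cacna2d1 and Cacnb1 lie above 0, and that of Cacna2d2 reaches 0 only with the block. The widest interval is that of Cacna2d4, from a fold of 0.176 to 1.24.

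Among the beta genes Cacnb1, the beta subunit of the skeletal muscle channel that is also made in brain, was higher in TRAP. The gene (ENSMUSG00000020882) lies on the minus strand at chr11:98001508-98023034. It was at 33.6, 33.0, 43.7 and 52.3 CPM in TRAP and at 26.9, 26.2, 21.3 and 24.8 CPM in INPUT. The fractions did not overlap, and the pools formed 2 sets, with differences of 0.32 and 0.34 on the log2 scale in VP1.6 and VP2.2 and of 1.03 and 1.08 in VP2.6 and VP2.11. This gave a log2 fold change of 0.69 ± 0.175, or 1.62-fold, with a limma adjusted p of 0.00826, and the block kept the call (95% interval 1.13 to 2.31, adjusted p 0.0402). It was lost with the fraction alone without VP2.6 (0.58, limma adjusted p 0.0731), and with the block without VP1.6 (0.82, 0.0663), VP2.6 (0.58, 0.207) or VP2.11 (0.56, 0.142).

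The promoters of the pair of genes that passed in both fits are shown because such start regions are where transcription of Cacna2d1 and Cacnb1 begins. Each is 300 bases from RefSeq (GRCm38.p6), from 250 before the annotated start to 50 after it, written 5′ to 3′ on the strand of the gene, with matches of the GC box GGGCGG on either strand in capitals. The windows are chr5:15934441-15934740 on the plus strand and chr11:98022578-98022877 on the minus strand, the first of 2 starts listed for Cacnb1.
Cacna2d1: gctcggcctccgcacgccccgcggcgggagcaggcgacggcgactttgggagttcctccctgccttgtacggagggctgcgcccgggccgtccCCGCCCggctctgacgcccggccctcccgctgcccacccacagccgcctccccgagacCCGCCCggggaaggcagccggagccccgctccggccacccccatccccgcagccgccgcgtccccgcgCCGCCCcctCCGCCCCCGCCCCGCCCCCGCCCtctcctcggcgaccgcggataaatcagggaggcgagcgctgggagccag
Cacnb1: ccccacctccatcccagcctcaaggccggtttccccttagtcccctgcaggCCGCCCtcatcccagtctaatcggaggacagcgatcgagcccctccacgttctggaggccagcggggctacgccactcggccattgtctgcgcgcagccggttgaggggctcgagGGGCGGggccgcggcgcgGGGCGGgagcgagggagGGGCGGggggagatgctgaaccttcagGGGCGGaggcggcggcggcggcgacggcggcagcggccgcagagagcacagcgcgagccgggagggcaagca

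The Cacna2d1 window was 80% G and C with 42 CpG dinucleotides, more than 97.0% of the 32851 promoters of the table, and held 7 GC boxes, several of them in a row close to the start. The Cacnb1 window was 73.7% G and C with 34 CpG and held 5 GC boxes, 1 near the far end and 4 grouped before the start. At least 1 GC box stood in 35.7% of all promoters, and the median promoter was 52.7% G and C with 7 CpG. The same kind of start region was found in genes of the families that did not pass: Cacna2d3 had 41 CpG with 6 GC boxes, and the first start of Cacnb4 had 40 CpG with 6. Of 4 other motifs searched on both strands, CAGCTG stood in 16.3% of all promoters, CAGATG in 17.2%, TGACG in 20.8% and TATAAA in 13.6%, and the windows shown held only 1 TGACG, in Cacna2d1. The second start of Cacnb1 was unlike the first, with 3 CpG and 0 GC boxes. A match of letters is a description and no evidence of a bound factor.

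Cacnb2, the principal beta subunit of cardiac channels, leaned the other way without passing. The gene (ENSMUSG00000057914) lies at chr2:14603088-14987908. It was at 9.19, 10.1, 8.42 and 12.0 CPM in TRAP and at 13.8, 12.7, 13.4 and 11.3 CPM in INPUT. TRAP was the lower fraction in VP1.6, VP2.2 and VP2.6, and the higher by 0.08 on the log2 scale in VP2.11. Its log2 fold change was −0.37 ± 0.168 (fold 0.771, 95% interval 0.596 to 0.998, limma adjusted p 0.0882), and −0.53 with a limma adjusted p of 0.0188 without VP2.11 (0.205 with the block). With the exon length trend taken out it passed as lower, at −0.86 (limma adjusted p 0.00324, or 0.0438 with the block).

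Cacnb3, a beta subunit of brain and smooth muscle, was above INPUT in every TRAP library by a small amount. The gene (ENSMUSG00000003352) lies at chr15:98630840-98644529. It was at 46.7, 37.0, 37.8 and 36.8 CPM in TRAP and at 27.9, 34.4, 34.4 and 35.5 CPM in INPUT. The difference came mainly from VP1.6, at 0.75 on the log2 scale, against 0.05 to 0.14 in the other pools. A log2 fold change of 0.26 ± 0.141 (1.20-fold, 95% interval 0.964 to 1.49) did not pass in limma (adjusted p 0.152), and without VP1.6 it was 0.10.

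Cacnb4, the beta subunit missing in lethargic mice, which have ataxia and absence seizures, was the most abundant of the 9 per kb of exon in both fractions. The gene (ENSMUSG00000017412) lies on the minus strand at chr2:52428320-52676831. It was at 186, 194, 164 and 135 CPM in TRAP and at 150.1, 122, 169 and 189 CPM in INPUT. The fractions overlapped over most of their range, and VP1.6 and VP2.2 had TRAP higher while VP2.6 and VP2.11 had it lower. Over the 4 pools the log2 fold change was 0.11 ± 0.169 (1.08-fold, limma adjusted p 0.602, 95% interval 0.768 to 1.52 with the block), and −0.21 with the exon length trend taken out. An opposite-strand transcript, A430018G15Rik, shares 1433 exon bases (16.0%) with Cacnb4, and whether reads were counted by strand is not given in the sources used here.

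Cbarp encodes a membrane protein that binds beta subunits and lowers calcium channel activity. The gene (ENSMUSG00000035640) lies on the minus strand at chr10:80130451-80140835. It was at 42.6, 49.0, 53.9 and 43.4 CPM in TRAP and at 45.9, 37.7, 37.5 and 44.6 CPM in INPUT. The fractions overlapped, with TRAP higher in VP2.2 and VP2.6 and slightly lower in the other pools. A log2 fold change of 0.19 ± 0.137 (1.14-fold, 95% interval 0.924 to 1.41) had a limma adjusted p of 0.278. Its exons share 232 bases (4.64%) with Stk11 and 68 bases (1.36%) with Atp5d on the other strand.

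The pools did not move all 9 genes together. TRAP was the higher fraction for 4 of the 9 genes in VP1.6, 7 in VP2.2, 5 in VP2.6 and 6 in VP2.11. VP1.6 had the lowest difference of the 4 pools for 5 genes, but the highest for Cacnb3.

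Levels can be compared between genes only per length, given here as CPM per kb of exon, merged over all annotated transcripts of a gene. This length can exceed that of any single transcript, so the order of the genes depends on it. In TRAP, Cacnb4 stood first at 18.9 ± 2.94 (SD, n = 4) and Cacna2d1 second at 12.9 ± 0.954, and their libraries did not overlap per kb. Without the division by length they did overlap, at 135 to 194 CPM for Cacnb4 and 144 to 172 for Cacna2d1. Cacnb3 (9.87 ± 1.19), Cbarp (9.45 ± 1.05) and Cacnb1 (8.98 ± 2.03) followed and could not be ordered by their ranges. Cacna2d1 and Cacnb3 overlapped in range too, though Cacna2d1 was above Cacnb3 in 4 of 4 TRAP libraries. Cacna2d3 (4.90 ± 1.34) and Cacna2d2 (3.58 ± 0.570) overlapped each other and lay below those 5, with Cacnb2 at 0.751 ± 0.116 and Cacna2d4 at 0.257 ± 0.231 at the bottom, each apart from its neighbour. In INPUT the order changed mainly in the place of Cacna2d1, which was the sixth of 9 at 4.56 ± 1.30, near Cacnb1 (5.47 ± 0.546) and Cacna2d3 (5.29 ± 1.45). Among all genes tested, Cacna2d1 exceeded 76.5% of them per kb in TRAP and 54.4% in INPUT, while Cacnb4 exceeded 82.5% and 80.9%. Cacnb2 exceeded 16.0% in TRAP and 18.9% in INPUT.

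The share of each gene in the summed CPM per kb of its family shows which paralogue prevails. These are shares of genes, and splice isoforms cannot be told apart in gene-level values. In TRAP, Cacna2d1 made up 67.0, 54.8, 60.3 and 56.7% of the alpha2delta sum (pools in the order above), against 30.6, 33.8, 35.5 and 41.9% in INPUT. The libraries did not overlap, and the mean share was 59.7 ± 5.41% in TRAP and 35.4 ± 4.78% in INPUT. The share of Cacna2d3 was 40.9 ± 3.70% in INPUT and 22.5 ± 4.60% in TRAP, lower in 4 of 4 pools. In the single INPUT libraries Cacna2d3 held 44.7, 37.2, 43.4 and 38.3%, above Cacna2d1 in VP1.6, VP2.2 and VP2.6 and below it in VP2.11, whereas Cacna2d1 led in all 4 TRAP libraries. Both differences had the smallest p that an exact two-sided permutation test of 4 against 4 libraries can give, 0.0286, which became 0.114 after adjustment over the 8 shares tested and so did not pass. Swapping labels only within pools cannot give less than 0.125, and gave that value. The shares of a family have a fixed sum, so a higher share of Cacna2d1 lowers the others, and these differences are not separate results. The level of Cacna2d3 itself did not pass (log2 fold change −0.10, limma adjusted p 0.765). Cacna2d2 held 16.6 ± 2.99% in TRAP and 20.4 ± 3.48% in INPUT, and Cacna2d4 held 1.20 ± 1.14% and 3.21 ± 1.07%.

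Within the beta family Cacnb4 led in both fractions, with 49.0 ± 6.11% of the sum in TRAP and 54.2 ± 4.92% in INPUT (exact permutation p = 0.257, adjusted 0.294). Cacnb3 took 23.7 to 28.7% in TRAP (mean 25.6%) and 22.6 to 29.6% in INPUT (mean 25.7%). Cacnb1 held 23.5 ± 6.24% against 17.2 ± 2.91%, a difference of 6.32 points that did not pass (exact permutation p = 0.171, adjusted 0.229), and its share in TRAP was most uneven between pools. Cacnb2 held 1.96 ± 0.362% and 3.03 ± 0.473%. In the beta family the order of the paralogues was Cacnb4, Cacnb3, Cacnb1 and Cacnb2 in the means of both fractions.

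**Figure D3:**
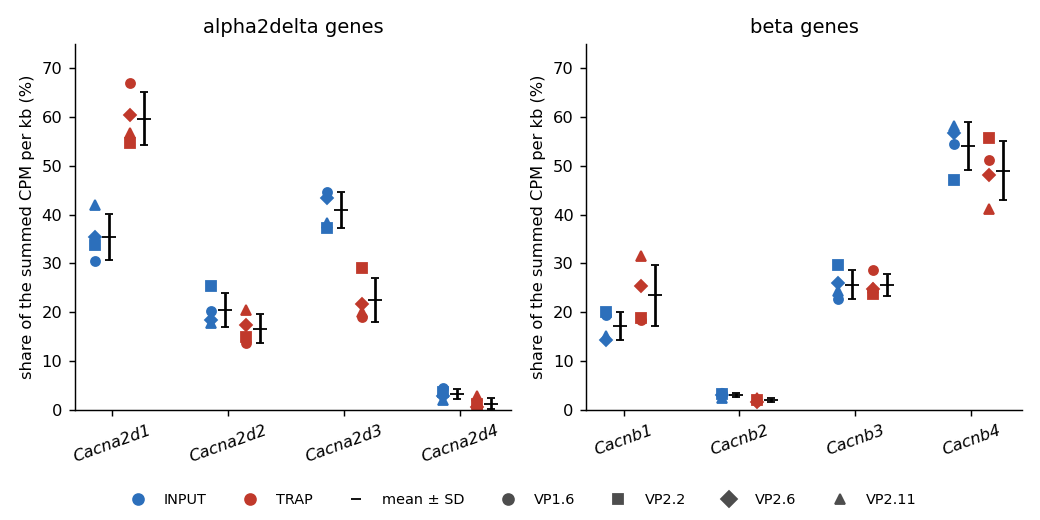
Share of each gene in the summed CPM per kb of the alpha2delta family (left) and the beta family (right), in percent, for 4 INPUT (blue) and 4 TRAP (red) libraries, with the mean ± SD beside them and symbols for the pools. Cacna2d1 averages 59.7% in TRAP and 35.4% in INPUT and Cacna2d3 22.5% and 40.9%, while the shares of the 4 beta genes overlap between the fractions.

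Summed per kb, the alpha2delta genes reached 21.6 ± 1.36 CPM in TRAP and 12.8 ± 2.86 in INPUT, and the beta genes 38.5 ± 1.59 and 32.2 ± 3.15. The ratio of alpha2delta to beta level was 0.560 in TRAP and 0.390 in INPUT, higher by 0.52 on the log2 scale (1.44-fold) and higher in 4 of 4 pools, with an exact permutation p of 0.0286, the smallest possible (0.0429 adjusted over the 3 ratios tested), and of 0.125 within pools. Most of the rise in the alpha2delta sum was that of Cacna2d1, from 4.56 CPM per kb in INPUT to 12.9 in TRAP. Cacna2d2 went from 2.55 to 3.58, Cacna2d3 from 5.29 to 4.90 and Cacna2d4 from 0.409 to 0.257. This ratio therefore largely repeats the result of Cacna2d1. Of the 7 high-voltage-activated pore genes, 5 had a row, while Cacna1f and Cacna1s had none. The sum of those 5 was 9.25 ± 1.29 CPM per kb in TRAP and 5.21 ± 1.38 in INPUT. The summed beta level was 4.19 times the summed pore level in TRAP and 6.36 times in INPUT, a log2 difference of −0.60 that was seen in 4 of 4 pools and ranged from −1.33 to −0.31 (exact permutation p = 0.0286, adjusted 0.0429, and 0.125 within pools). These multiples depend on the exon lengths used. With no length correction, the beta genes summed to 236 to 275 CPM in TRAP and 196 to 260 in INPUT. The pore genes then summed to 133 to 184 and 47.6 to 103 CPM, and the log2 difference was −0.80 (exact permutation p = 0.0286 before adjustment). The ratio of alpha2delta to pore level was 2.35 in TRAP and 2.48 in INPUT and did not pass (exact permutation p = 0.486).

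Gene length moved with these ratios. Over all 14249 genes, longer exon length went with a higher log2 fold change (Spearman rho 0.412, a description over genes that are not independent), and the 9 genes had a median of 8.72 kb of exon against 4.27 kb for all genes. With that trend taken out, the log2 difference of the alpha2delta to beta ratio was 0.28 (exact permutation p = 0.114) and that of the beta to pore ratio −0.22 (exact permutation p = 0.514), so neither passed, before any adjustment. The share of Cacna2d1 was then 21.5 points higher in TRAP (24.3 with the trend left in).

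**Figure D4:**
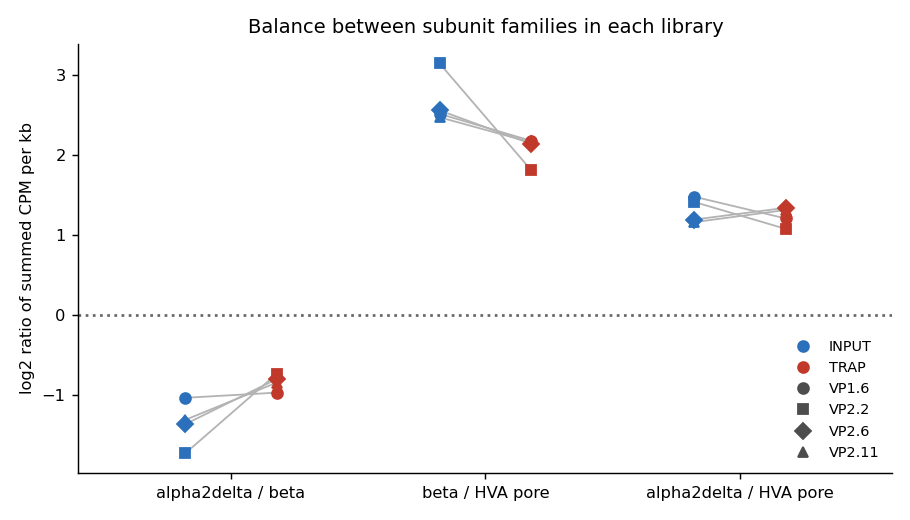
Log2 ratio of the summed CPM per kb of alpha2delta to beta, beta to high-voltage-activated (HVA) pore and alpha2delta to HVA pore genes in each INPUT (blue) and TRAP (red) library, with grey lines joining the libraries of a pool. The first ratio is higher and the second lower in TRAP in 4 of 4 pools, by 0.52 and −0.60 on average, and the third has 2 pools in each direction.

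Of the pore genes themselves, 4 of 5 high-voltage-activated ones passed as higher in TRAP with the fraction alone, 2 with the block, and 0 with the exon length trend taken out. Of the 3 low-voltage-activated ones, which need no auxiliary subunit, 2 passed in both fits and with the trend taken out, but 0 with the trend taken out and the block. Over all 14249 genes tested, 23.2% passed as higher with the fraction alone and 15.4% with the block. With the trend taken out, 3069 of them passed as higher, or 1889 with the block as well. The largest log2 fold changes among pore genes were those of Cacna1g (Cav3.1), at 1.39 (limma adjusted p 0.00289, block 0.0222), and Cacna1e (Cav2.3), at 1.33 (0.00453, block 0.00426). With the block, the call of Cacna1g was lost without VP2.2 (1.36, limma adjusted p 0.0565) or without VP2.6 (1.25, 0.113), and that of Cacna1e was lost with the exon length trend taken out (0.59, 0.181). Cacna1e was at 77.5 ± 15.2 CPM in TRAP and 32.7 ± 13.2 in INPUT. Cacna1g was far scarcer, at 5.10 ± 1.41 CPM in TRAP and 1.93 ± 0.428 in INPUT. The smallest were those of Cacna1a (Cav2.1, the P/Q-type pore), at −0.05 (limma adjusted p 0.889), and Cacna1h (Cav3.2), at 0.22 (0.621). The Cacna1h value rested on VP2.11, with a pool difference of −1.26 against 0.59 to 0.84 in the other pools, and without VP2.11 it was 0.71 (limma adjusted p 0.00907, block 0.153). Leaving out a pool moved Cacna1a within −0.33 to 0.23.

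Of 17 listed partners of calcium channels or their subunits, 13 were tested, while Rem1, Rrad, Stac3 and Thbs4 had no row. Of those tested, 4 passed in both fits, 2 in each direction. The median log2 fold change of the 13 was 0.24. Cachd1, an alpha2delta-like membrane protein, was higher in TRAP by 1.58 on the log2 scale (23.6 ± 7.75 against 7.87 ± 2.38 CPM, limma adjusted p 0.00152, block 0.00161). Rims1, an active zone scaffold that binds beta subunits, was higher by 1.17 (155 ± 6.33 against 70.4 ± 16.7 CPM, limma adjusted p 6.1e-04, block 0.00153). Rem2, a small GTPase that binds beta subunits and inhibits the channels, had a log2 fold change of −0.89 (7.78 ± 1.72 against 14.3 ± 2.15 CPM, limma adjusted p 0.00461, block 0.0298), and the call was lost when the block was joined with the exon length trend (−0.55, 0.165) or, with the block, without VP1.6 (−0.73, 0.172), VP2.6 (−0.94, 0.0863) or VP2.11 (−0.84, 0.0615). Thbs3, of the thrombospondin family whose members bind the Cacna2d1 protein, was at −2.57 (1.75 ± 0.968 against 9.32 ± 1.62 CPM, limma adjusted p 5.2e-04, block 7.9e-04). Of 6 gamma subunit genes tested, of 8 listed, 0 passed as higher and 2 as lower in both fits (median log2 fold change −0.58). Among all genes tested, the block called 15.4% as higher and 16.8% as lower, against 23.2% and 24.8% with the fraction alone. Most gamma genes are known as AMPA receptor partners.

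The genes whose log2 CPM ran most alike with Cacna2d1 over the 8 libraries were Dcaf13, Cul1 and Las1l, with Pearson r of 0.9997, 0.9993 and 0.9993. Those most alike with Cacnb4 were Cask, a scaffold protein of synapses, Slc25a25 and Kcna1, with r of 0.989, 0.982 and 0.981. The 8 points share fractions and pools, and for Cacna2d1 they fall into 2 sets by fraction, so the r values are given as a description.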

How the data were processed

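The 9 genes and all lists were chosen with earlier results of these data known. The values the authors deposited are log2 CPM, 1 per gene and library. As the methods describe, reads were aligned with STAR (2.5.1a in the submitters' processing notes) to an Ensembl mouse assembly (GRCm38), unique reads per gene were counted with Subread featureCounts, and counts were scaled by TMM in edgeR. The deposited table also holds the authors' own fold changes, limits, p-values and average levels, which were not used. Both VP2.11 libraries and the INPUT library of VP1.6 have values with 3 significant digits only. The values carry no read totals, so depth is unknown here and errors are the spread over pools, with no counting interval.

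Of 14398 entries, 45 repeats of a gene were left out. Genes that exceeded 1 CPM in 3 or more libraries (14249) were fitted with limma 3.58.1 in R 4.3.3 (lmFit, eBayes with a trend) on the log2 CPM with the fraction alone, since the methods name no pool term, with Benjamini-Hochberg adjustment (threshold 0.05). The pool was added as a block as the paired fit, because the labels give both libraries of a pool the same number and the methods take both from 1 homogenate. Positions and exon lengths came from GENCODE M21 (GRCm38), and promoters from RefSeq. Shares and ratios were compared by exact two-sided permutation tests over libraries in Python 3.11.15. The scripts were tested on simulated data with known changes.

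The text names all 9 genes, both target checks, the 2 pore genes with the largest and the 2 with the smallest absolute log2 fold change, partners past the threshold in both fits, and the 3 genes most alike with Cacna2d1 and with Cacnb4. Alternatives were the block, array weights, median centring, no filter, log2(CPM + 1), the exon length trend taken out and each pool left out.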

Additional observations from a re-analysis of the deposited data

Results flagged for a closer look

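In pool VP1.6, Cacnb3 lay apart from the other pools in both fractions, and in opposite directions. Its log2 CPM was 5.55 in TRAP VP1.6 against 5.20 to 5.24 in the other 3 TRAP libraries, and 4.8 in INPUT VP1.6 against 5.10 to 5.15 in the other 3 INPUT libraries. The gap took up 0.878 and 0.869 of the range of the group, which is over Dixon's 95% critical value for 4 values. Of 18 groups examined, 2 passed, and chance alone would give about 0.9 (1 in 20) if the groups were independent. The 2 are the same gene in the same pool, whose libraries deviated in opposite directions across genes (Pearson r −0.745). They are thus not separate events, and the count cannot be set against 0.9.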

How the results depend on the processing

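Across results and alternatives, 380 values kept direction and side of the threshold or, for counts of genes called, stayed within 1.5 times. A further 57 lost the threshold, 10 gained it, 10 counts moved by over 1.5 times and 20 values changed sign. For the shares, none of which passed, swaps within pools and fits without 1 pool cannot reach the threshold. Their side of the threshold was thus fixed in advance there, and these values among the 380 say nothing about it. The block gave 4592 genes and 2 of the 9. The block with the exon length trend taken out gave 3707 genes, and leaving out a pool gave 3232 to 6894 genes and 1 to 4 of the 9. The leave-one-out fits with the block and the length trend for shares and ratios were chosen after seeing the data. Array weights called 8645 of the 14249 genes tested and 6 of the 9. They added Cacna2d4 (−1.86, limma adjusted p 0.00466), Cacnb2 (−0.51, 0.00487) and Cacnb3 (0.30, 0.0481). Array weights with the block called 6013 genes and 3 of the 9 (Cacna2d1, Cacnb1 and Cacna2d4 at −1.77, limma adjusted p 0.0143). Cacna2d2 (limma adjusted p 0.137), Cacnb2 (0.116) and Cacnb3 (0.205) did not pass there. Directions changed with the length trend taken out for Cacnb4 (−0.21) and Cacna1h (−0.14), with and without the block, for the share of Cacnb3 (3.65 points) and for the alpha2delta to pore ratio (0.057). The share of Cacnb3 was 0.614 points higher in TRAP with no length correction. Without 1 pool, sign changes came within −0.48 to 0.13 for Cacna2d3, −0.071 to 0.31 for Cacnb4, −0.33 to 0.23 for Cacna1a, −2.16 to 1.85 points for the share of Cacnb3 and −0.15 to 0.0091 for the alpha2delta to pore ratio. The alpha2delta to beta ratio (0.52) and the beta to pore ratio (−0.60) lost the threshold within pools and with each pool left out, where 3 against 3 libraries cannot go below 0.1 (ranges 0.37 to 0.68 and −0.70 to −0.36), and with the length trend taken out (0.28 and −0.22). The cause of these changes was not tested. With the block, Cacna2d2 lost the call that it had with the fraction alone, as did Cacna1b (0.70, adjusted p 0.0518) and Cacna1d (0.86, 0.0784) among the pore genes. Depth limits could not be set, since the values hold no read totals.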
